A study of Mus musculus with 12 samples.

Results

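The genes described here are the replication-dependent histone genes, which supply the histone proteins that package newly made DNA. They were taken by name: every gene of the count table whose GENCODE M21 symbol begins with Hist1h, Hist2h, Hist3h or Hist4h and that had at least 10 counts summed over the 12 libraries. Of the 43629 genes in the table, 67 carried such a symbol and 60 reached the minimum. By histone type these were 6 linker histone genes (H1), 15 H2A, 15 H2B, 11 H3 and 13 H4 genes. By cluster, 50 lay in Hist1 on chromosome 13, in 2 blocks (GRCm38 chr13:21715763-22043676 with 21 members and chr13:23531050-23934156 with 29). A further 6 lay in Hist2 (chr3:96219865-96269141), 3 in Hist3 (chr11:58948920-58956830) and 1 was Hist4h4 (chr6:136801553-136804415). A filter on low counts left 58 members for testing; Hist1h2br and Hist1h4m were not tested. The symbol alone made a gene a member, so the group also holds Hist3h2bb-ps, named as a pseudogene, and testis histones such as Hist1h1t.

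The libraries came from thymic pre-T cells of C57BL/6 mice, sorted by flow cytometry, with 4 biological replicates in each of 3 groups. Control DN3a and control DN3b cells came from mice whose Zfp36l1 and Zfp36l2 alleles are both floxed (Zfp36l1 fl/fl, Zfp36l2 fl/fl) and whose genotype lists no Cre. The third group, DCKO, was DN3-like cells of mice with the same floxed alleles plus CD2cre, a Cre recombinase driven by regulatory sequence of the lymphocyte gene CD2. Zfp36l1 and Zfp36l2 encode RNA-binding proteins that bind AU-rich elements and promote mRNA decay. DN3a cells are early pre-T cells that have not passed beta-selection, and DN3b cells have passed it and started to divide. No age was given, and all DCKO cells carried Cre while no control did, so effects of Cre and of the deletion cannot be told apart. The DCKO label reads DN3 and is not split into DN3a and DN3b as in the controls. A different mix of stages in DCKO therefore cannot be told apart from the deletion either.

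Nucleosomes hold DNA wound around the core histones H2A, H2B, H3 and H4, and linker histone H1 binds where the DNA enters and leaves. Replication-dependent histone mRNAs accumulate in S phase, when chromatin is doubled, and are degraded when DNA synthesis stops. They lack introns and, unlike other mRNAs, end in a short stem-loop in place of a poly(A) tail; the stem-loop is bound by SLBP, and the U7 small nuclear ribonucleoprotein directs cleavage just after it. Thymocytes pass from a resting state to rapid division at beta-selection. The library kit removed ribosomal RNA and did not select polyadenylated RNA, so mRNAs without a tail could be counted. In sorted bulk cells, fewer cells in S phase and less histone RNA per cell cannot be told apart.

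The shared 3′ element is shown first because it is what sets these mRNAs apart. A search of the GENCODE M21 transcripts for the 16-base stem-loop, in either of the pyrimidine and purine forms of its stem, found it in 37 of the 60 members (61.67%) and in 5 of 21830 other genes with a protein-coding transcript (0.0229%). Not finding it says only that the annotated transcript does not contain these letters, since many histone models end at the stop codon. The form differed by type: the H4 members with a match carried a C-G pair where the other types carried a T-A pair. The examples below, 1 per type and then 3 of the members with unusual patterns or variant loops, are in DNA letters from 5′ to 3′, with the stem-loop in capitals and up to 5 flanking bases on each side.
Hist1h1e (H1): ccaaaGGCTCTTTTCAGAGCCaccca
Hist1h2ab (H2A): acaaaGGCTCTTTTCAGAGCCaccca
Hist1h2bb (H2B): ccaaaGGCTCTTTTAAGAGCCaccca
Hist1h3b (H3): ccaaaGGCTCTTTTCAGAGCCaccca
Hist1h4d (H4): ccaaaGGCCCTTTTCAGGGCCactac
Hist1h3e (H3): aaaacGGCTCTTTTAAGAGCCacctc
Hist3h2a (H2A): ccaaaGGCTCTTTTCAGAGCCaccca
Hist1h1t (H1): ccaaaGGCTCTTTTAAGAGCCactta
Among H4 members, 7 carried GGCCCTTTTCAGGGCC and 2, Hist1h4i and Hist2h4, carried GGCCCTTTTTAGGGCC. Among the others, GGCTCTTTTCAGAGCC was found in 3 H1, 8 H2A, 6 H2B and 4 H3 members, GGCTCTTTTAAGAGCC in 1 H1, 2 H2B and 3 H3 members, and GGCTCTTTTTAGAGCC in 1 H2A member, Hist2h2ac. Of the 60 members, 15 had a poly(A) signal within the last 50 annotated bases of a transcript, with or without a stem-loop match. Hist2h2be, Hist3h2a and Hist1h1t, whose values are given below, were 3 of those 15. Of the 15, Hist2h2be, Hist1h2br, Hist1h4a and Hist1h4j had no stem-loop match. The annotated transcript of Hist2h2be has 2620 bases.

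Promoters are shown because the members moved together. RefSeq (GRCm38.p6) start sites were matched for 54 of the 60 members, and the window from 250 bases before to 50 after each start was searched on both strands for 5 strings, none of which lies within another. CCAAT, the motif bound by the trimeric factor NF-Y, was found in 45 of 54 members (83.3%) against 37.4% of all 32851 promoters of the table. It was in every matched H1, H2A, H2B and H3 promoter but in 3 of 12 H4 promoters (25%). TATAAA was in 33 of 54 (61.1%) against 13.6%. The octamer ATTTGCAT, bound by Oct1, was in 6 of 15 H2A and 4 of 12 H2B promoters and in no matched promoter of the other types, against 1.74%. Some H2A and H2B genes lie head to head with overlapping windows, such as Hist1h2ae and Hist1h2bg. In such pairs 1 match can count for both genes. AAACACA, the H1 box, was in 5 of 6 H1 promoters (83.3%) against 7.18%. GGTCCG, part of the H4 promoter element, was in 11 of 12 H4 promoters (91.7%) against 8.25%. These matches describe the windows and are not evidence of binding. The 100 bases before the start are given below for 1 member of each type, and for Hist3h2a because it moved against the others. Each runs 5′ to 3′ on the gene's own strand, with matches to any of the 5 strings (on either strand) in capitals.
Hist1h1b (H1, chr13:21780626-21780725, minus strand): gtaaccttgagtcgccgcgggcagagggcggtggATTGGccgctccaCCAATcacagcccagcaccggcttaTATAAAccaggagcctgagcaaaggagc
Hist1h2ab (H2A, chr13:23750988-23751087, plus strand): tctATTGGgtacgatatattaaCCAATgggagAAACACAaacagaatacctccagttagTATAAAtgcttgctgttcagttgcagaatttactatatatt
Hist1h2bb (H2B, chr13:23746634-23746733, plus strand): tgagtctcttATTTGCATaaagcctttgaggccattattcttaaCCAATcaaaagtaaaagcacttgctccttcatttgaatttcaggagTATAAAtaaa
Hist1h3b (H3, chr13:23752245-23752344, plus strand): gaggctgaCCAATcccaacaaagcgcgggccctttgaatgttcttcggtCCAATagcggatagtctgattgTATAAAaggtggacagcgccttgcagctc
Hist1h4d (H4, chr13:23581468-23581567, plus strand): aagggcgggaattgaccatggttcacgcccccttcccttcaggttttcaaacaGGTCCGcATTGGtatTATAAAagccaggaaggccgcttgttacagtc
Hist3h2a (H2A, chr11:58954585-58954684, plus strand): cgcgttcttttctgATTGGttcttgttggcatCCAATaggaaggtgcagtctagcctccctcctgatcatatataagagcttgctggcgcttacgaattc

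Libraries held 28479157 to 45975678 counts. The labels were checked on the targeted genes: Zfp36l1 was at 27.1 to 43.9 CPM (counts scaled to a common library size, with TMM factors) for DN3a, 9.63 to 23.3 for DN3b and 1.64 to 3.8 for DCKO, and Zfp36l2 was at 341 to 685, 287 to 467 and 45.4 to 87.9. The DCKO values were lower than DN3a for Zfp36l1 by a log2 fold change of -3.86 and for Zfp36l2 by one of -3.08 (edgeR adjusted p = 4e-06 and 3.7e-06). Both were lower in every DCKO library than in every control. The 13 pre-T cell markers (Ptcra, Rag1, Il2ra, Cd3e and others) had summed levels of 8118 to 11279 CPM (DN3a), 5925 to 7883 (DN3b) and 9000 to 13870 (DCKO), none of them at 0. Markers of other cells were low but not equal between groups. The 6 B cell markers summed to 42.7 to 58.4 CPM in DN3a against 9.76 to 32.1 in DN3b, and the 7 myeloid markers to 23.4 to 33.7 against 4.91 to 13.1; DCKO lay at 18.7 to 24.7 and 11.2 to 25.5. The 4 NK cell markers summed to 54.5 to 57.8, 6.24 to 27.6 and 17.9 to 29.5 CPM, and the 6 thymic stroma markers to 195 to 270, 82.3 to 165 and 90.3 to 154, with Pdgfra at 0 throughout. The 4 markers of later CD4 and CD8 thymocytes went the other way, with 3.86 to 4.48 CPM in DN3a, against 24.2 to 61.5 after beta-selection (DN3b) and 9.18 to 36.4 for DCKO. The 5 dendritic markers summed to 8.06 to 12.5, 9.24 to 12 and 13.0 to 23.5 CPM, the 7 erythroid markers to 8.27 to 26.2, 2.83 to 29.4 and 4.04 to 17.3, and the 4 gamma-delta markers in the table to 50.4 to 58.8, 32.2 to 56.0 and 33.5 to 111, with Il17a at 0. The part of these cells in the histone values was not tested.

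Histone genes took a larger share of all counts in DN3b than in DN3a. The 60 members held 0.126%, 0.0850%, 0.162% and 0.196% of counts in the 4 DN3a libraries, 0.837%, 0.580%, 0.671% and 0.583% in DN3b, and 0.395%, 0.367%, 0.447% and 0.820% in DCKO. DN3a did not overlap with either other group, while DN3b and DCKO overlapped because the fourth DCKO library lay in the DN3b range. The mean summed CPM was 1264 ± 462 for DN3a, 6771 ± 1129 for DN3b and 5617 ± 2103 for DCKO (each ± SD over 4 libraries). In every type, each DN3b library had a higher summed CPM than every DN3a library.

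**Figure D1:**
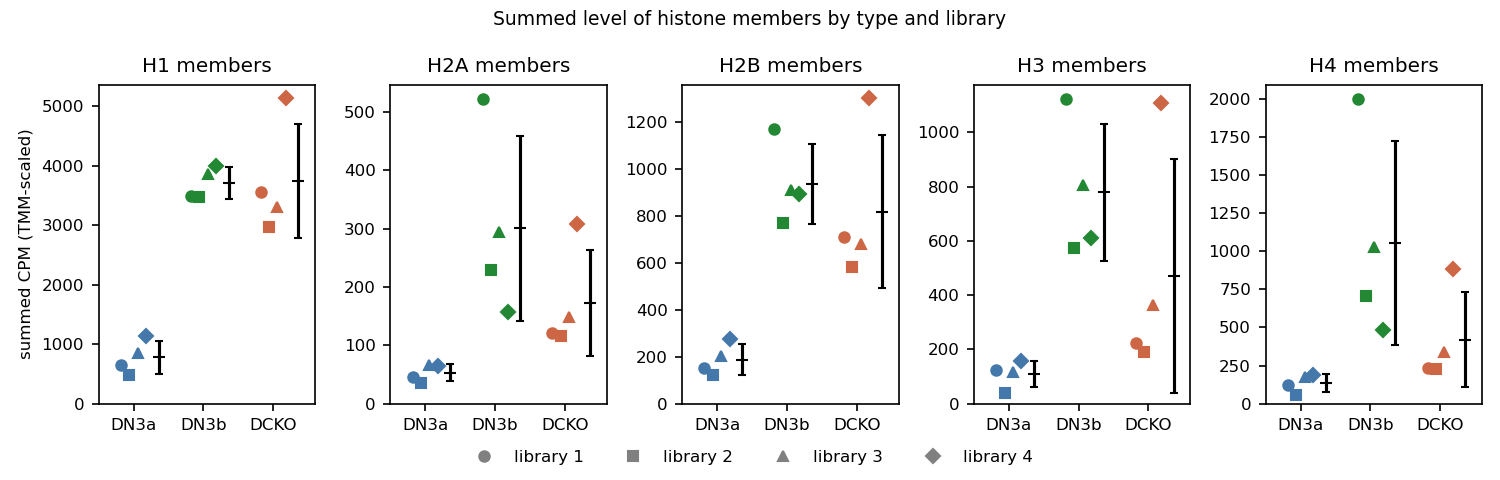
Summed CPM of the histone members of each type (y axis, from 0, a separate scale per type) in the 12 libraries, with marker shape for the library number and mean ± SD of 4 libraries in black. H4 members reached 483 to 1997 CPM in DN3b, 225 to 336 in the first 3 DCKO libraries and 884 in the fourth, while H1 members reached 3463 to 3998 in DN3b and 2967 to 5128 in DCKO.

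The comparison of control DN3b with control DN3a asks how these genes differ between cells before and after beta-selection. Of the 58 members tested, 56 were higher in DN3b and 2 were lower, Hist2h2be and Hist3h2a (edgeR quasi-likelihood test, adjusted p under 0.05 after Benjamini-Hochberg adjustment over all genes). Over all 13944 genes tested, 27.4% were called higher and 25.2% lower. This fit did not use the pairing of same-numbered DN3a and DN3b libraries. With a replicate block, 54 members were higher and 2 lower, where 4529 of 13715 genes were called higher and 4704 lower. The median log2 fold change was 2.81 over the tested members and -0.02 over all genes. All 4 DN3b libraries lay above all 4 DN3a libraries for 55 members, against 24.8% of all genes. The type medians were 2.22 for H1, 2.85 for H2A, 2.58 for H2B, 2.83 for H3 and 2.94 for H4, on the log2 scale. By position, the medians were 2.94 in the first Hist1 block (19 tested) and 2.74 in the second (29 tested), where every tested member rose. They were 2.11 in Hist2 (5 of 6 rose) and 2.05 in Hist3 (2 of 3 rose), and Hist4h4 rose by 2.42.

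Linker histones compact chromatin, and all 6 H1 members rose. Hist1h1a (chr13:23763666-23764406) stood at 145.9, 148.2, 288.5 and 388.7 CPM in DN3a, at 943, 1255, 1274 and 1365 in DN3b and at 1352, 1076, 1158 and 1643 in DCKO. The lowest DN3b library was well above the highest DN3a library, and DCKO libraries fell within or above the DN3b range. The log2 fold change from DN3a to DN3b was 2.32 ± 0.29 (SE; adjusted p = 7.1e-05). Hist1h1b (chr13:21779883-21780625) stood at 87.1, 98.0, 177 and 265 CPM in DN3a, at 714, 851, 937 and 1007 in DN3b and at 883, 810, 968 and 1312 in DCKO, and rose by 2.49 ± 0.31 (adjusted p = 6.7e-05). Hist1h1c, Hist1h1d and Hist1h1e rose by 1.86, 2.17 and 2.24. The testis linker histone Hist1h1t also rose, by 2.21 ± 0.36 (adjusted p = 0.00035), from at most 0.261 CPM in DN3a to at most 1.17 in DN3b.

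H2A and H2B form the dimers at the outside of the nucleosome, and 14 of 15 H2A members and 13 of 14 tested H2B members rose. Hist1h2ab (chr13:23751126-23751598) was at 4.96, 5.82, 13.4 and 15.6 CPM in DN3a, at 88.3, 55.7, 67.1 and 42.0 in DN3b and at 38.3, 35.2, 43.1 and 69.8 in DCKO. The groups DN3a and DN3b did not overlap, and Hist1h2ab rose by 2.68 ± 0.38 on the log2 scale (adjusted p = 0.00013), a linear fold of 6.39. The H2A member with the largest rise was Hist1h2af, at 0.561, 0.261, 1.04 and 1.10 CPM in DN3a and 30.7, 4.66, 7.11 and 3.06 in DN3b. Its log2 fold change of 3.96 ± 0.83 (adjusted p = 0.0017) leaned on the first DN3b library, and 94.0% of the 50-base words of its transcripts also occurred in another gene. Hist1h2ah rose by 3.53, Hist1h2ai by 3.31, Hist1h2ak by 3.13 and Hist2h2ac, of the Hist2 cluster, by 2.88. Among H2B members, Hist1h2bb (chr13:23746734-23747241) was at 28.2, 40.4, 64.1 and 95.2 CPM in DN3a, at 184, 235, 226 and 253 in DN3b and at 303, 245, 250 and 287 in DCKO. DN3b lay wholly above DN3a, a rise of 1.98 ± 0.29 (adjusted p = 0.00016). Hist1h2be and Hist1h2bn rose by 2.36 and 2.89, and in the Hist3 cluster Hist3h2ba and Hist3h2bb-ps rose by 2.05 and 2.42.

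H3 and H4 form the tetramer at the centre of the nucleosome, and all 11 H3 members and all 12 tested H4 members rose. Hist1h3e (chr13:23561534-23562369) was at 24.9, 5.11, 20.6 and 19.8 CPM in DN3a, at 223, 80.9, 131 and 57.5 in DN3b and at 16.6, 13.4, 29.8 and 158 in DCKO. DN3b was above DN3a in every library, with a log2 fold change of 2.81 ± 0.77 (adjusted p = 0.0084). Hist1h3a, Hist1h3b and Hist1h3f rose by 2.83, 2.74 and 2.81. Hist2h3b, all of whose 50-base words also occur in another gene, rose by 3.19. Hist2h3c2 was the member nearest the threshold, at 0.187 to 0.266 CPM in DN3a and 0.212 to 0.614 in DN3b (0.93 ± 0.35, adjusted p = 0.037); the authors' deposited table gave an adjusted p of 0.11 for it, and DESeq2, limma-voom, upper quartile scaling and the fit with the replicate block did not call it. Hist1h4d (chr13:23581598-23582735) was at 54.7, 21.5, 54.5 and 68.3 CPM in DN3a, at 726, 210, 321 and 183 in DN3b and at 101, 90.0, 122 and 324 in DCKO. DN3b did not overlap with DN3a, and the rise was 2.86 ± 0.54 (adjusted p = 0.00081). Hist1h4a rose by 3.58, Hist1h4f by 3.5, Hist1h4k by 3.34, Hist2h4 by 2.91 and Hist1h4c by 2.77.

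Hist2h2be and Hist3h2a moved against the other members. Hist2h2be (H2B, chr3:96221119-96223738) was at 22.5, 23.9, 19.1 and 13.9 CPM in DN3a, at 15.7, 12.9, 12.1 and 8.95 in DN3b and at 25.4, 25.0, 20.6 and 25.5 in DCKO. DN3a and DN3b overlapped by 1 library on each side, though each DN3b library was below the DN3a library of the same number. All DCKO libraries were above all DN3b libraries. The gene fell by 0.68 on the log2 scale from DN3a to DN3b (SE 0.19, adjusted p = 0.0093). Hist3h2a (H2A, chr11:58954685-58956830) was at 14.7, 11.2, 8.08 and 5.23 CPM in DN3a, at 4.38, 3.63, 2.44 and 1.53 in DN3b and at 5.56, 6.65, 6.48 and 9.19 in DCKO. All DN3b libraries were below all others, and the gene fell by 1.70 from DN3a to DN3b (SE 0.35, adjusted p = 0.0014). The annotated gene overlaps Trim17 on the same strand, which stood at 0 to 0.502 CPM in all libraries. Both genes have a poly(A) signal at an annotated transcript end. Of the 14 tested members with one, 12 rose and 2 fell, and of the 44 without one all rose; the part of the signal in these values was not tested. No word of 50 bases of Hist2h2be occurred in another gene, and 31.5% of those of Hist3h2a did.

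**Figure D2:**
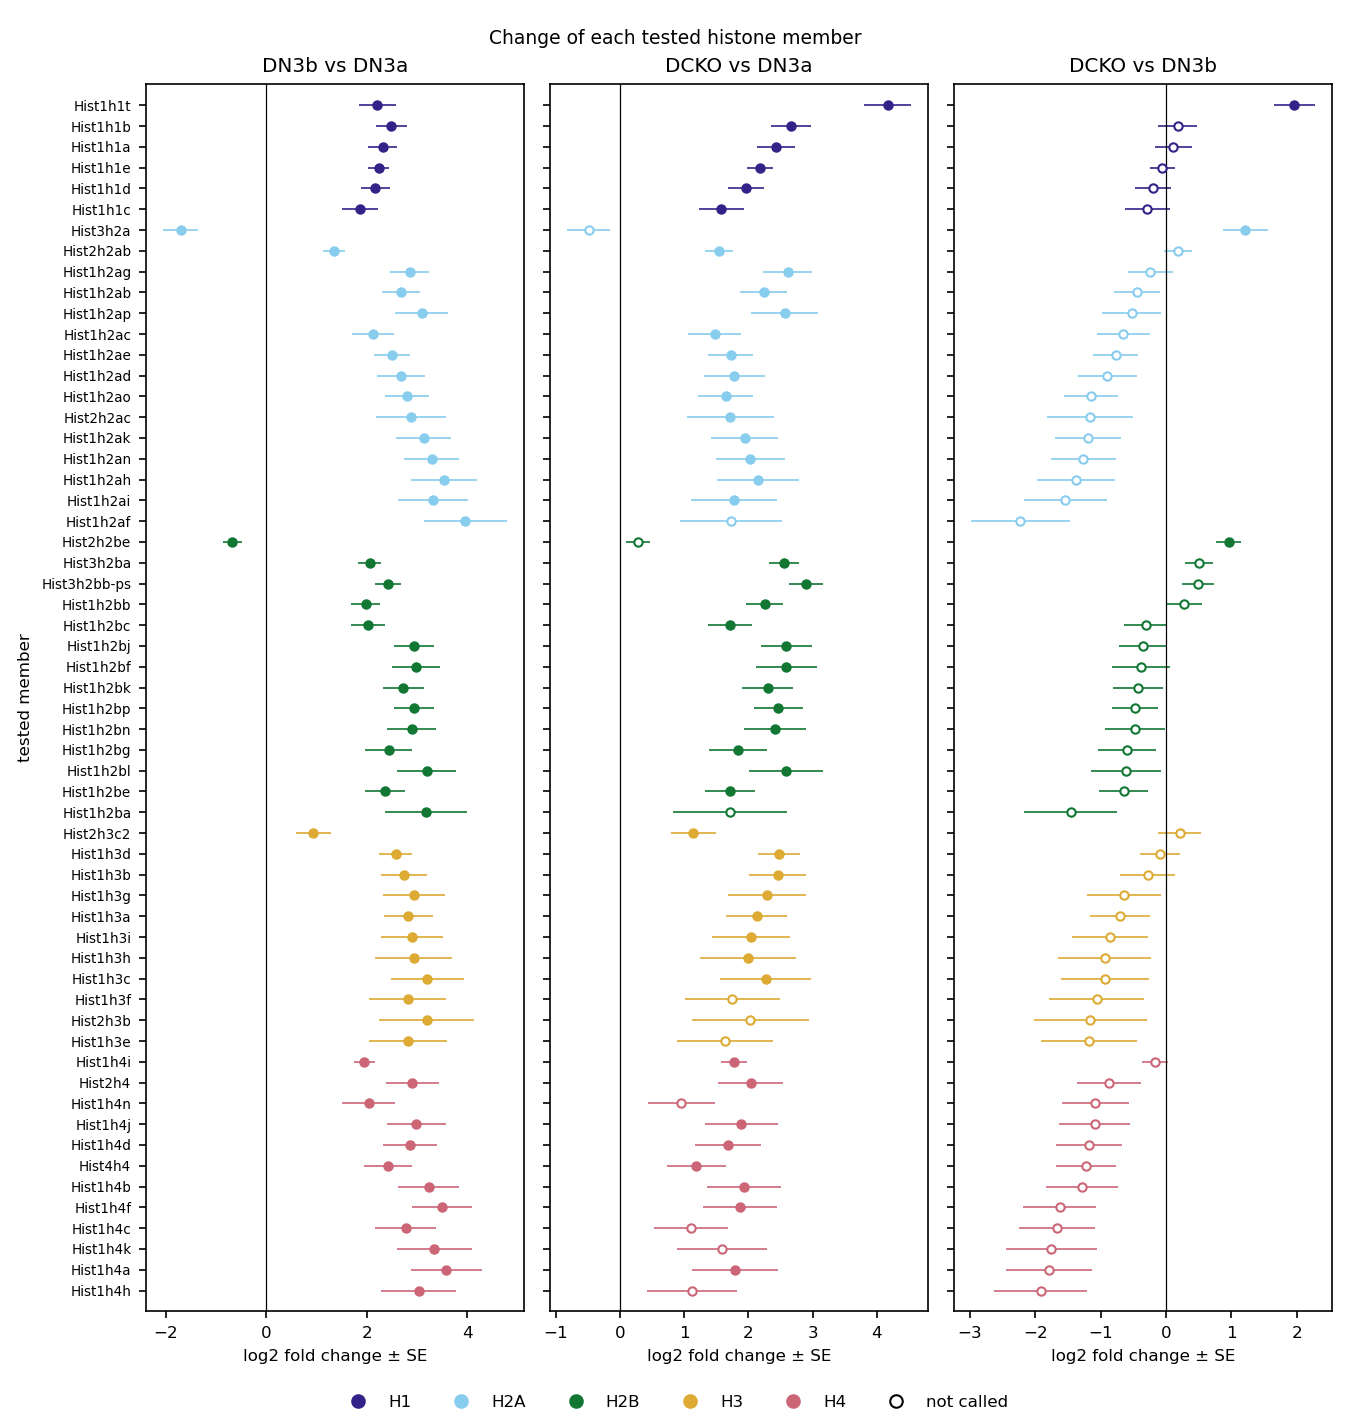
Fitted log2 fold change ± SE of each of the 58 tested members (rows, coloured by histone type, ordered within type by the change from DN3b to DCKO) in the 3 comparisons; filled points passed the adjusted p of 0.05 and open points did not. Nearly all points lie right of 0 against DN3a, with Hist2h2be and Hist3h2a to the left in DN3b vs DN3a, and against DN3b only Hist1h1t, Hist3h2a and Hist2h2be are filled.

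The comparison of DCKO with control DN3a asks how histone genes stand in DCKO cells relative to control cells before beta-selection. It shares the DN3a libraries with the comparison above. In DCKO the RNA of both targeted genes was lower but not absent, and these data hold no protein values. Of 58 members tested, 47 were higher in DCKO, none was lower (also none by DESeq2 or limma-voom, or by edgeR at an unadjusted p under 0.05), and 11 passed in neither direction, where 30.7% of all genes were called higher and 29.5% lower. The median log2 fold change of the members was 1.94, and that of all genes -0.04. All 4 DCKO libraries lay above all 4 DN3a libraries for 40 members, against 27.8% of all genes. The members called higher were 6 of 6 for H1, 13 of 15 for H2A, 12 of 14 for H2B, 8 of 11 for H3 and 8 of 12 for H4, with type medians of 2.30, 1.77, 2.36, 2.04 and 1.73. Without the fourth DCKO library the count was 36, where 4210 of all 14259 genes tested were called higher. The medians for H3 and H4 then became 1.02 and 1.02 while that for H1 was 2.20. That library drew notice through these same histone values, so the fit without it is not separate support.

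Hist1h1t had the largest rise, 4.17 ± 0.36 (adjusted p = 4e-06), from 0.148, 0.131, 0.261 and 0.260 CPM in DN3a to 4.96, 3.92, 2.27 and 3.25 in DCKO. Every DCKO library was above every control library. Hist3h2bb-ps rose by 2.90, from at most 3.25 CPM in DN3a to at least 11.5 in DCKO, and Hist1h1b rose by 2.66 ± 0.31 (adjusted p = 2e-05). Hist1h1a, Hist1h1e, Hist1h1d and Hist1h1c rose by 2.43, 2.18, 1.96 and 1.58, Hist1h2bb by 2.25, Hist1h2ab by 2.24 and Hist3h2ba by 2.55. Hist1h2be and Hist1h2bn rose by 1.71 and 2.42, Hist1h3a and Hist1h3b by 2.13 and 2.46, Hist2h4 by 2.03, Hist1h2ak by 1.94 and Hist1h2ah by 2.15. Hist1h4d rose by 1.68 ± 0.52 (adjusted p = 0.013), Hist1h4f by 1.87 and Hist1h4a by 1.79, and without the fourth DCKO library these 3 were no longer called. Hist2h4 was then at 1.33 and still called. Just inside the threshold were Hist1h2ai (1.77, adjusted p = 0.035), Hist4h4 (1.19, adjusted p = 0.040) and Hist2h2ac (1.72, adjusted p = 0.043). Without the fourth DCKO library these were at 0.96, 0.72 and 0.51 (adjusted p 0.17 to 0.39) and were no longer called. Just outside it were Hist1h3f (1.75, adjusted p = 0.057), Hist1h4k (1.59, adjusted p = 0.068) and Hist2h3b (2.03, adjusted p = 0.069). Values for Hist1h3e (1.63, adjusted p = 0.074), Hist1h4c (1.10, adjusted p = 0.12), Hist2h2be (0.28, adjusted p = 0.22) and Hist3h2a (-0.49, adjusted p = 0.23) did not pass.

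The comparison of DCKO with control DN3b sets the knockout cells beside cells that have passed beta-selection, and shares the DCKO and DN3b libraries with the comparisons above. With all 12 libraries, 3 members were called higher and none lower, where 10.3% of all genes were called higher and 8.58% lower. Hist1h1t rose by 1.96 ± 0.31 (adjusted p = 0.0011), from 0.929, 1.03, 0.557 and 1.17 CPM in DN3b to the 2.27 to 4.96 in DCKO. Hist2h2be rose by 0.96 ± 0.19 (adjusted p = 0.0044) and Hist3h2a by 1.21 ± 0.35 (adjusted p = 0.029), and in all 3 every DCKO library was above every DN3b library, as for 11% of all genes. The Hist3h2a call was lost when any 1 of 6 libraries was left out (DN3b 2, 3 or 4, DCKO 2, 3 or 4), with adjusted p between 0.053 and 0.089. All 3 are among the 14 tested members with a poly(A) signal at an annotated end. The count of 0 lower members depended on the tool: DESeq2 called 6 lower, where it called 11.1% of all genes lower, and limma-voom called 4, with 8.33% of all genes. The authors' deposited table lists 2 as lower, Hist1h2an and Hist1h2ao, and 3 as higher. It called 20% of its 15223 genes with an adjusted p, higher and lower together. By edgeR at an unadjusted p under 0.05, 15 members were lower and 4 higher. Of all 13944 genes, 4713 passed, higher and lower together, and this count was not split by direction.

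Within the DCKO group, the libraries differed from each other. The fourth was the highest of its group for 54 of the 58 tested members, whereas it was highest for 30.9% of all genes. For H4, summed CPM was 1997, 709, 1030 and 483 in DN3b and 236, 225, 336 and 884 in DCKO, so that the first 3 DCKO libraries lay under every DN3b library and the fourth inside their range. H3 sums were 1122, 574, 807 and 610 in DN3b and 222, 189, 363 and 1108 in DCKO, with the first 3 DCKO libraries again under every DN3b library. H2A sums were 523, 229, 294 and 157 against 121, 116, 149 and 308, and H2B sums 1169, 769, 910 and 891 against 710, 582, 679 and 1299; the first 3 DCKO libraries were under all of DN3b in both. H1 sums were 3496, 3463, 3853 and 3998 against 3555, 2967, 3296 and 5128, so for H1 the first DCKO library was itself within the DN3b range. The ratio of core to H1 summed CPM was 1.38, 0.658, 0.789 and 0.535 in DN3b, and 0.362, 0.374, 0.463 and 0.702 in DCKO; in DN3a it was 0.532 to 0.677. CPM is not scaled to gene length, so the ratio is read between libraries only. The first 3 DCKO libraries had lower ratios than any control library, and the fourth did not.

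With all 4 DCKO libraries, the type medians against DN3b were 0.03 for H1, -0.90 for H2A, -0.41 for H2B, -0.85 for H3 and -1.26 for H4, and all 12 tested H4 members had values below 0 without passing the test. The fourth DCKO library drew notice through these same histone values, so leaving it out was bound to lower the DCKO levels of most members. Calls made without it describe the other DCKO libraries and are not separate support. Without the fourth DCKO library, 32 members were called lower in DCKO than in DN3b and 2 higher, where 10.9% of all genes were called lower. These 32 were 8 of 15 H2A, 5 of 14 H2B, 8 of 11 H3 and 11 of 12 H4 members, and none of the 6 H1 members. The type medians were then -0.09 for H1, -1.27 for H2A, -0.81 for H2B, -1.91 for H3 and -1.90 for H4. Hist1h3e then had a log2 fold change of -2.62 (adjusted p = 0.0079), Hist1h4k of -2.82 (adjusted p = 0.0095), Hist2h3b of -3.16 (adjusted p = 0.0067), Hist1h4d of -1.79 (adjusted p = 0.021) and Hist1h2be of -1.15 (adjusted p = 0.022). Hist1h1a, Hist1h1b and Hist1h1e then stood at -0.02, 0.02 and -0.15 (adjusted p 0.98, 0.98 and 0.64), and Hist1h1c and Hist1h1d at -0.75 and -0.53 (adjusted p 0.076 and 0.11). Leaving out the fourth DN3b library gave 7 lower and 2 higher, where 10.3% of all genes were called lower. Leaving out the first DN3b library gave none lower, where 6.89% of all genes were called lower. The medians then moved towards 0, to -0.51 for H2A, -0.21 for H2B, -0.58 for H3 and -0.94 for H4. Over all tested members the median moved to -0.38, from -0.65. Without the second DCKO library the H2B median was -0.24. Leaving out the first 2 DCKO libraries together gave none lower and 1 higher. Of all 14592 genes tested in that fit, 528 were called higher and 422 (2.89%) lower. The median was then -0.16 over the members, and -0.40 for H2A, 0.04 for H2B, -0.14 for H3 and -0.76 for H4. With all libraries, the H3 median was -1.32 with limma-voom and -1.37 with the replicate block. Whether H1 and core histone members differed from each other in their change was not tested.

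**Figure D3:**
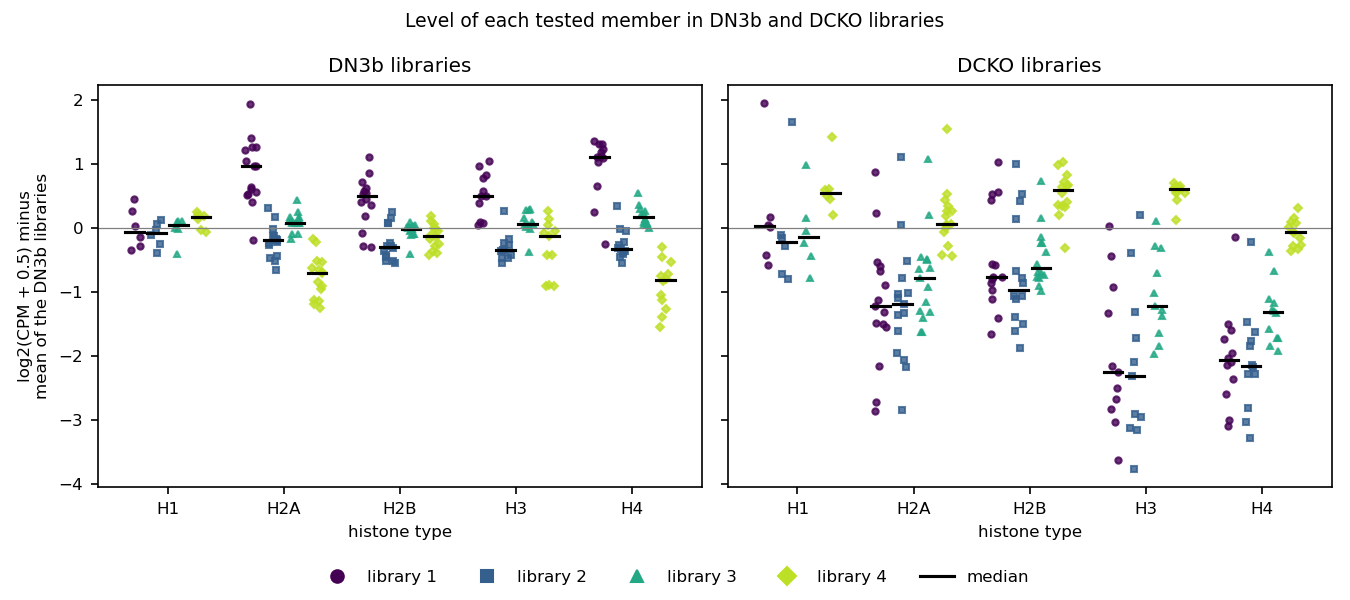
For each of the 58 tested members, log2(CPM + 0.5) in a library minus the mean of the 4 DN3b libraries (y axis), by histone type (x axis), with libraries 1 to 4 side by side and the median as a black bar. In the DCKO panel the H4 medians are -2.07, -2.16 and -1.32 for libraries 1 to 3 and -0.07 for library 4, while the H1 medians are 0.03, -0.22, -0.14 and 0.55.

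Members within a type did not all have the same values. With all libraries, the largest negative values against DN3b were Hist1h2af (-2.23 ± 0.76, adjusted p = 0.056), Hist1h4h (-1.92, adjusted p = 0.077), Hist1h4a (-1.79), Hist1h4k (-1.76), Hist1h4c (-1.67, adjusted p = 0.061) and Hist1h4f (-1.63 ± 0.56, adjusted p = 0.059); none passed. Hist1h2bb, at 0.27 ± 0.28, Hist1h3b at -0.28 and Hist2h3c2 at 0.21 were near 0, as were Hist1h1a (0.11), Hist1h1b (0.18), Hist1h1c (-0.28), Hist1h1d (-0.20) and Hist1h1e (-0.06). Hist1h3e had 13.4 to 29.8 CPM in the first 3 DCKO libraries, inside or just above the DN3a range, and 158 in the fourth. Hist1h2bb had 245 to 303 CPM in all 4. The ratio of the highest to the lowest library within a group had a median over the tested members of 3.43 in DCKO, 2.25 in DN3b and 3.48 in DN3a, against 1.42, 1.47 and 1.44 over all genes. In DCKO it was 1.90 for H1, 2.70 for H2A, 3.0 for H2B, 7.52 for H3 and 4.46 for H4. In DN3b the first library was the highest of its group for 45 members, against 37.7% of all genes. In DN3a the second was the lowest for 43, against 27.3% of all genes.

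**Figure D4:**
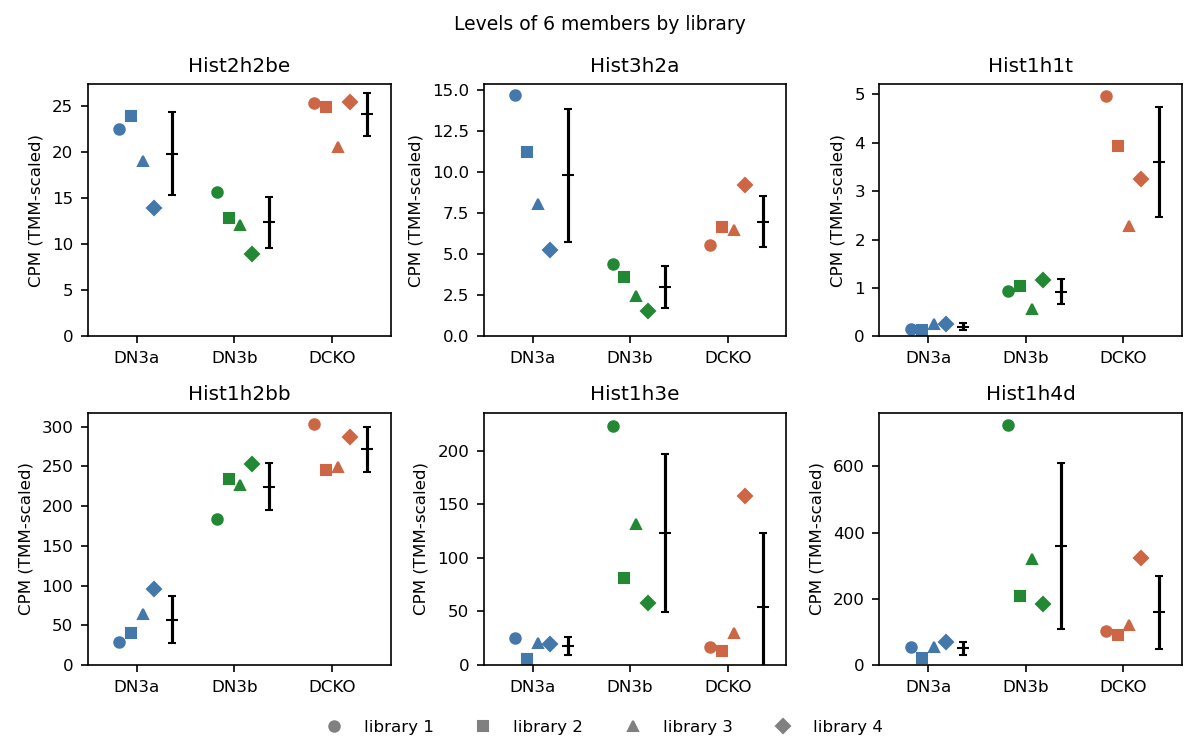
CPM (y axis, from 0, a separate scale per gene) of Hist2h2be, Hist3h2a, Hist1h1t, Hist1h2bb, Hist1h3e and Hist1h4d in the 12 libraries, with marker shape for the library number and mean ± SD of 4 libraries in black. Hist2h2be and Hist3h2a were lowest in DN3b, Hist1h1t was highest in DCKO, and Hist1h3e and Hist1h4d were high in the fourth DCKO library, at 158 and 324 CPM.

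Levels of other genes also differed between libraries by base composition, but not in the same way in every GC range. The median coding GC content of the tested members was 59.6% for H1, 69.5% for H2A, 62.8% for H2B, 67.4% for H3 and 65.5% for H4. Among 739 other genes with 60% to 65% coding GC, the median deviation from each gene's mean over libraries (log2 CPM) was 0.50 in the first DN3b library and 0.20 in the fourth DCKO library, against -0.21, -0.27 and -0.19 in the first 3 DCKO libraries. Among 91 with 65% to 70%, where the medians of H2A, H3 and H4 lie, it was 0.33 and 0.29 against 0.04, -0.03 and 0.01. With a GC correction per library, chosen after seeing these values, the type medians of DCKO against DN3b were 0.20 for H1, -0.96 for H2A, -0.21 for H2B, -0.88 for H3 and -1.13 for H4. That fit called 4 members higher, the fourth being Hist3h2ba, and 2 lower, Hist1h2af and Hist1h2ao, where 10.8% of all genes were called lower. Reads of near-identical histone genes can also be split or lost: for 29 of the 60 members over 50% of the 50-base words occurred in another gene, so levels of single core histone genes are uncertain.

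Among the genes that make and process histone mRNA, most rose with the histone genes in both comparisons with DN3a. Of 32 tested (Rnu7, the U7 RNA gene, stood at 0 throughout), 27 were higher and none lower in DN3b by edgeR, and 25 higher and none lower in DCKO (also 0 lower at an unadjusted p under 0.05 in both); their median log2 fold changes were 0.60 and 0.73. Slbp, which encodes the stem-loop binding protein, had mean levels of 147 ± 35.8, 342 ± 59.8 and 465 ± 53.6 CPM in the order DN3a, DN3b, DCKO (SD, n = 4), and rose by 1.22 and 1.66 against DN3a. Ccne1 and Ccne2 (cyclin E, which activates Cdk2 at the entry to S phase) rose by 2.73 and 1.90 in DN3b and by 3.53 and 3.26 in DCKO, and Cdk2 by 1.12 and 1.51. Casp8ap2 (FLASH) rose by 0.46 and 0.78, Lsm11 of the U7 particle by 0.31 and 0.36, and the Sm protein gene Snrpb by 1.38 and 1.07. Npat, the cyclin E-Cdk2 substrate that activates histone transcription, rose in DCKO by 0.39 and had a value of 0.16 (adjusted p = 0.27) in DN3b. Against DN3b, 3 were higher and 2 lower in DCKO. Ccne2 rose by 1.36 ± 0.28 (adjusted p = 0.0048), and the NF-Y subunit genes Nfyb and Nfyc by 0.36 and 0.29 (adjusted p 0.011 and 0.028). The lower genes were Zfp473, which encodes a zinc finger protein that associates with the U7 particle and fell by 1.06 (adjusted p = 0.028), and Lsm10, a ring protein of that particle, which fell by 0.44 (adjusted p = 0.047). The values for Slbp, Npat, Casp8ap2 and Lsm11 were 0.44, 0.23, 0.33 and 0.05 (adjusted p 0.095 to 0.79).

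Replacement histones can be made outside S phase as well, and their mRNAs can be polyadenylated. Of 11, 8 were higher and 1 lower in DN3b than in DN3a, and 9 were higher in DCKO and none lower, also at an unadjusted p under 0.05. H2afz rose by 1.79 and 1.86, H2afx by 1.52 and 1.54, H3f3b by 0.55 and 1.26 and H3f3a by 0.35 and 0.61, and Cenpa, the centromeric H3, by 1.79 and 2.40. H1f0, a linker histone of non-dividing cells, fell by 0.70 from DN3a to DN3b (adjusted p = 0.013) and had a value of 0.19 in DCKO against DN3a. Against DN3b, H3f3b rose by 0.70 ± 0.09 (adjusted p = 0.00023) and H1f0 by 0.89 ± 0.21 (adjusted p = 0.011) in DCKO, while H3f3a (0.25), H2afz (0.07) and H2afx (0.03) did not pass.

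Histone chaperones carry new histones to DNA. Of 23, 18 were higher and 1 lower in both DN3b and DCKO relative to DN3a. Asf1b, which hands H3 and H4 to CAF-1, had mean levels of 28.1 ± 11.6, 104 ± 23.8 and 120 ± 10.1 CPM in the same order, and rose by 1.88 and 2.10 against DN3a. The CAF-1 subunit genes Chaf1a and Chaf1b rose by 1.55 and 1.05 in DN3b and by 1.38 and 1.14 in DCKO, Nasp by 1.49 and 1.61, Mcm2 by 1.29 and 1.20, and Nap1l4 by 0.65 and 0.84. Against DN3b the call was Ipo4 alone, an importin for H3 and H4, which fell by 0.43 (adjusted p = 0.042). At an unadjusted p under 0.05, 4 were higher and 3 lower, where 4713 of all 13944 genes passed, higher and lower together. Asf1b, Chaf1a, Cabin1 and Tonsl had values of 0.21, -0.16, -0.37 and -0.30 there without passing.

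DNA replication genes encode the proteins that license, unwind and copy DNA in S phase. All 38 tested were higher in DN3b and in DCKO than in DN3a, with median log2 fold changes of 1.45 and 1.44. Their summed CPM ran from 3904 to 5508 for DN3a, 8687 to 13070 for DN3b and 11342 to 12175 for DCKO. In DCKO the fourth library, at 12125 CPM, lay among the other 3 (12175, 11342 and 11741), unlike its histone sums. In DN3b the first library had the lowest replication sum, 8687 CPM, and the highest histone sum. Fen1, Mcm5 and Rpa2 (flap endonuclease, replicative helicase subunit and single-strand binding subunit) rose by 1.61, 1.74 and 1.19 in DN3b and by 1.6, 1.40 and 1.24 in DCKO. Against DN3b, 3 were higher in DCKO and none lower by edgeR: Rpa3 by 0.72, Orc6 by 0.67 and Cdc6, the licensing factor, by 0.74 ± 0.24 (adjusted p = 0.045). At an unadjusted p under 0.05, 6 were higher and 3 lower, where 4713 of all 13944 genes passed, higher and lower together. The median of the 38 in DCKO against DN3b was 0.06, beside -0.65 for the 58 tested histone members.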

How the data were processed

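Sorted thymic pre-T cells gave total RNA, and libraries were stranded and depleted of ribosomal RNA, per the labels' protocols. The authors deposited raw counts per gene; build GRCm38 and the tools TopHat2 2.0.12, HTSeq, Trim Galore and DESeq2 1.6.3 are listed in the submitters' processing notes. No source used here gives the annotation release, strand setting or handling of multiply mapped reads; reads of overlapping, antisense or near-identical genes therefore cannot be told apart. The authors also deposited a signal table of scaled counts (not used for results), and DESeq2 tables with log2 fold changes, a Wald score and p-values, cited only as the authors' deposited table. Symbols came from GENCODE M21 (42462 of 43629 genes matched).

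Genes passing filterByExpr (count minimum 10; 13944) entered 1 edgeR 4.0.16 quasi-likelihood fit (R 4.3.3, TMM, group only, 9 residual degrees of freedom, two-sided, Benjamini-Hochberg over all genes, threshold 0.05). "Called" means past that threshold, and rose or fell are used in that sense. The SE is the log2 fold change divided by the square root of F. Intervals from counts would cover counting error only, so spreads between replicates are given. Alternatives were DESeq2 1.42.0, limma 3.58.1 (voom), other scalings and filters, a replicate block, leaving out libraries and a GC correction. The code was tested on simulated data. Same-numbered DN3a and DN3b libraries deviated together (correlations 0.57, 0.67, 0.44 and 0.61), so their numbers were taken to pair them. Same-numbered DCKO libraries did not deviate with them. The main fit left this pairing out, and the replicate block used it. Replicates were not duplicates: their counts differed by a chi-square of at least 30.9 per degree of freedom.

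The members and gene lists were chosen with earlier results of these data known. Named members were, by rule, the 3 most abundant per type, all H1 members, the 3 largest changes each way per comparison (mean of at least 1 CPM), those against the majority, the most abundant of Hist2, Hist3 and Hist4, and those nearest the threshold. Of each list, up to 3 genes with the smallest adjusted p per comparison and a fixed set were named. Hist1h2an, Hist1h2ao, Hist1h4h, Hist1h4m, Zfp473 and Lsm10 and the examples of sequences were chosen after their values were seen.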

Additional observations from a re-analysis of the deposited data

Results flagged for a closer look

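In groups of 4 libraries, a library is listed here where its gap to the nearest other was beyond Dixon's critical share of the group's range; chance does this in about 1 of 20 groups, and 116 groups (39 named members and sums, by group, leaving out groups with no spread) were checked. The fourth DCKO library was the high one in 14 of the 17 cases. These cases are not independent, since the members share the same libraries and the sums hold the members. Hist1h4m was added after its values were seen, so its case was fixed in advance. The tally therefore cannot be set against that rate. In CPM it stood at 719 for Hist1h1c, 795 for Hist1h1d, 13.7 for Hist1h2ai, 53.4 for Hist1h2ak, 158 for Hist1h3e, 153 for Hist1h3f, 65.4 for Hist1h4c, 324 for Hist1h4d, 87.5 for Hist1h4f, 60.4 for Hist2h3b and 27.7 for Hist4h4. Its summed CPM was 8727 over all members and 884 over H4 members. Hist1h4m, which was not tested, was at 8.26 CPM (259 counts) in that library and at 0 to 0.0714 CPM in the other 11. Of the 50-base words of Hist1h4m, 89.8% also occurred in another gene. The remaining 3 cases were the first DN3b library for Hist1h2af, high at 30.7 CPM, the second DN3a library for Hist1h3f, low at 4.93 CPM, and the third DCKO library for Hist2h2be, low at 20.6 CPM.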

How the results depend on the processing

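Members called in DN3b vs DN3a and in DCKO vs DN3a stayed within 1.5 times of the reported counts under every alternative run. Members called in DCKO vs DN3b, 3 as reported, numbered 5 with upper quartile factors, 9 with DESeq2, 7 with limma-voom, 6 without the low-count filter, 1 without DCKO libraries 1 and 2 and 6 with GC-corrected offsets, and 2 to 34 when 1 library was left out (34 without DCKO library 4, 9 without DN3b library 4); the cause was not tested. The replicate block called 56 members in DN3b vs DN3a (54 higher, 2 lower, losing Hist2h3c2, which many alternatives lost), 49 in DCKO vs DN3a and 2 in DCKO vs DN3b, where the numbers are not known to pair samples. In DCKO vs DN3b, histone mRNA processing genes called, 5 as reported, numbered 3 without the filter, 1 with the replicate block, 2 with the block and GC-corrected offsets, 0 without DCKO libraries 1 and 2, and 1 to 8 leaving out 1 library. Replacement histones called, 2, became 1 without DCKO libraries 1 and 2. Chaperones called, 1, became 3 with upper quartile factors, 2 with GC-corrected offsets, 0 without DCKO libraries 1 and 2, and 0 to 3 leaving out 1 library. DNA replication genes called, 3, became 1 without DCKO libraries 1 and 2, and 1 to 4 leaving out 1 library. Calls over all genes in DCKO vs DN3b changed as well, from 1438 higher and 1197 lower of 13944 as reported. They were 528 and 422 of 14592 without DCKO libraries 1 and 2, and 589 and 473 of 13283 with the replicate block. Without DCKO library 4 they were 1691 and 1558 of 14259. They were 1796 and 1552 with DESeq2, and 1051 and 1644 with upper quartile factors. The sign changes were all between values that did not pass in either setting. Upper quartile factors gave H1f0 -0.031 in DCKO vs DN3a and, in DCKO vs DN3b, H2afx -0.047, H2afz -0.0085 and Lsm11 -0.032; these factors put the median of all genes at -0.26 and -0.10 in these comparisons and at -0.17 in DN3b vs DN3a. H2afx there was -0.021 with limma-voom, -0.041 with the replicate block, -0.082 with GC-corrected offsets and -0.13 with both. Hist1h1e was 0.18 with GC-corrected offsets and 0.18 with the block added, and Npat -0.0059 with both. Without DCKO libraries 1 and 2, Hist1h1c was 0.044, Hist1h1d 0.093, Hist1h2bn 0.057 and Hist1h3b 0.24. Leaving out 1 library at a time gave ranges of -0.021 to 0.32 for H1f0 in DCKO vs DN3a and, in DCKO vs DN3b, of -0.20 to 0.14 for H2afx, -0.018 to 0.11 for H2afz, -0.016 to 0.18 for Hist1h1a, -0.039 to 0.41 for Hist2h3c2 and -0.0089 to 0.081 for Lsm11.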
